A study of Mus musculus with 258 samples.

Results

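Single cells were sorted from the dorsal pancreas of wild-type (WT) mouse embryos at E13.5 into a Ngn3-high and a Ngn3-low gate, and the RNA of each cell was sequenced on its own. All 59 WT Ngn3-high cells and all 49 WT Ngn3-low cells in the single-cell count table were used, 108 of the 221 single cells in a series of 258 samples. The embryos were Ngn3-GFP, so the gates follow a fluorescent reporter of Neurog3 (also called Ngn3). The labels do not give the bounds of the gates, the number of embryos or any further allele of the WT cells. The study also holds bulk RNA of both gates at E13.5 and of Ins1-RFP positive cells at E17.5, single Jmjd3-deleted cells and chromatin immunoprecipitates. Of these, the 2 bulk Ngn3-high and 2 bulk Ngn3-low libraries are set beside the single cells, and the 2 Ins1-RFP positive libraries entered the fit of the bulk counts.

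Neurog3 is the basic helix-loop-helix transcription factor that starts endocrine differentiation in the embryonic pancreas. Trunk epithelial cells, which carry Sox9 and receive Notch signals, make it at a low level first, and cells with a high level turn toward the endocrine fate. These cells switch on Neurod1, Insm1, Pax4 and other factors, stop dividing, leave the epithelium and become hormone-producing islet cells. Exocrine tip cells, which make digestive enzymes, lie in a neighbouring domain of the same epithelium.

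Libraries were made by Smart-seq2, a method that reads along the transcript, and carry no molecular identifiers. Read totals in genes lay between 380478 and 1949839, and the gate medians were 721848 for Ngn3-high and 608883 for Ngn3-low. Levels are given in CPM, the reads of a gene scaled to 1000000 reads in genes, either in 1 cell or over the summed reads of a gate. A cell is said to carry a gene at 10 CPM or more. After thinning to 300000 reads per cell, the median number of genes detected was 7522 in Ngn3-high and 7861 in Ngn3-low cells. No animal or litter is named for a cell, so each gate is 1 sample and differences between the gates carry no test. The titles hold a number of unstated meaning. Numbers 1, 5 and 6 occur in the Ngn3-high gate (27, 16 and 16 cells) and numbers 1 to 5 in the Ngn3-low gate (10, 13, 7, 14 and 5 cells), so numbers 1 and 5 occur in both. After the same thinning, median genes detected were 7800, 7064.5 and 7554 in Ngn3-high numbers 1, 5 and 6. In Ngn3-low numbers 1 to 5 they were 8583.5, 9644, 7631, 6619.5 and 7756.

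Of 40824 genes, 11144 had a mean of the gate levels of 5 CPM or more. Of these, 1437 (12.9%) were at least 2-fold higher in Ngn3-high cells and 1950 (17.498%) were at least 2-fold lower, on log2 values with 1 CPM added. A stricter rule asked that every Ngn3-high title number lie on the same side of every Ngn3-low title number, which is called apart here. It left 1041 genes higher (9.34%) and 1128 lower (10.1%), of which 554 and 579 differed at least 4-fold. With ERCC scaling 593 were higher and 959 lower and apart, and without cells under 500000 reads 918 were higher and 645 lower and apart. Within the shared title numbers 1 and 5, 1053 genes were 2-fold higher in both and 1213 were 2-fold lower in both. Of the 1437 higher and 1950 lower genes, 136 and 347 lost their direction in number 1 or in number 5. Scaling to ERCC spike-in reads moved the median log2 ratio of all genes to -0.39, against -0.04 with CPM. The split became 999 higher and 2841 lower genes, with 26.02% higher against 42.4% with CPM. Reads in genes per ERCC read had medians of 22.5 in Ngn3-high and 32.01 in Ngn3-low cells, 21.7 in Ngn3-high and 20.4 in Ngn3-low cells within number 1, and 41.7 in Ngn3-high and 49.9 in Ngn3-low cells within number 5.

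**Figure D1:**
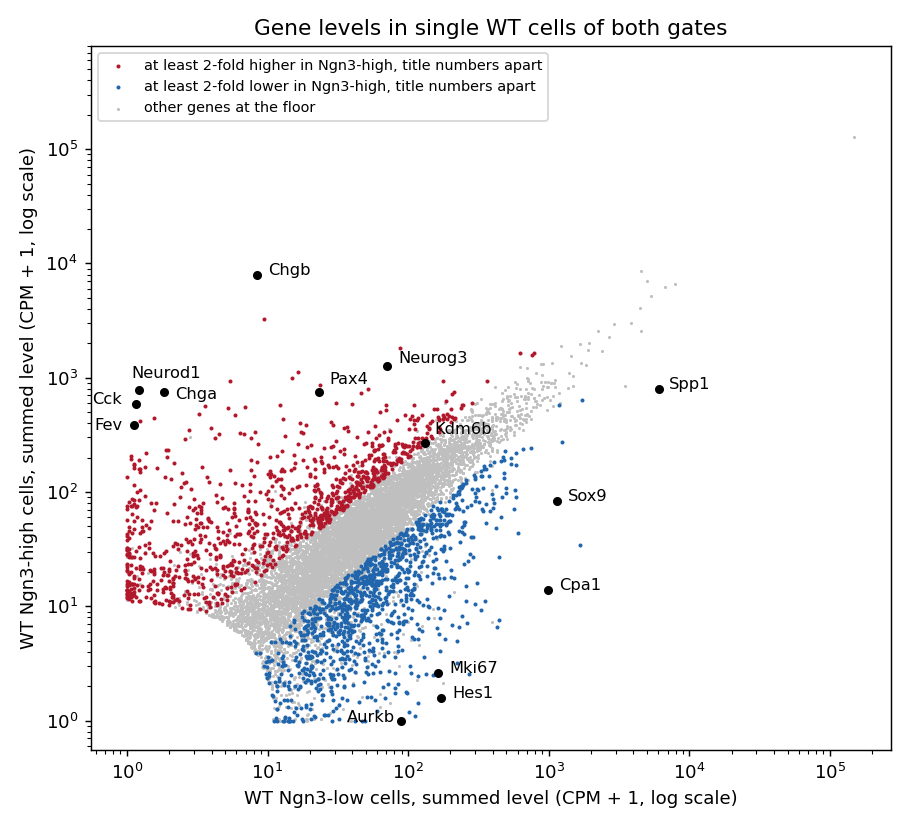
Level of each gene in WT Ngn3-high cells (vertical axis) and in WT Ngn3-low cells (horizontal axis), as CPM of the summed reads plus 1 on log scales. Red and blue points are the 1041 higher and 1128 lower genes that were apart between title numbers, and black points are named genes such as Chgb, far above the diagonal, and Hes1, far below it.

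Neurog3 itself followed the gates. The gene (ENSMUSG00000044312, chr10:62133090-62134763, RefSeq on GRCm38.p6) stood at 1199, 1167 and 1426 CPM in Ngn3-high title numbers 1, 5 and 6, against 78.3, 27.6, 122, 63.97 and 125 CPM in Ngn3-low title numbers 1 to 5. Every Ngn3-high value lay above every Ngn3-low value. Per cell it ran from 0 through a median of 1214 to 4103 CPM in Ngn3-high cells, and from 0 through 27.6 to 493 CPM in Ngn3-low cells, so the cells of the gates overlapped. It was carried by 49 of 59 Ngn3-high cells (83.1%, exact Clopper-Pearson 95% interval 71.0 to 91.6%) and by 27 of 49 Ngn3-low cells (55.1%, 40.2 to 69.3%). With every cell thinned to 300000 reads, the shares were 84.7% in Ngn3-high and 57.1% in Ngn3-low cells. These intervals cover counting error only.

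Transcription factors that act with and after Neurog3 were higher in Ngn3-high cells. Counts over lists here include members with low values. Of 20 listed factors, 16 were at least 2-fold higher and apart and 0 lower, with a median log2 ratio of 5.19 over the gates, 4.67 within title number 1 and 4.99 within number 5. Of the 20, 18 reached a mean of 5 CPM. Neurod1 (ENSMUSG00000034701, chr2:79452637-79456636), a direct target of Neurog3, stood at 756, 998 and 660.4 CPM in the Ngn3-high title numbers and at no more than 0.585 CPM in any Ngn3-low title number. It was carried by 51 of 59 Ngn3-high cells and 0 of 49 Ngn3-low cells, where a count of 0 allows a share of up to 6.12%, taken as 3 cells of 49.

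One group of factors was carried by nearly every Ngn3-high cell. Pax4, a homeobox factor needed for beta and delta cells, stood at 862, 611 and 643 CPM in the Ngn3-high title numbers, against 31.7, 16.6, 56.95, 3.58 and 0 CPM in the Ngn3-low title numbers, and was carried by 57 Ngn3-high and 7 Ngn3-low cells. Insm1, a zinc-finger factor of endocrine and neuronal precursors, was at 154 CPM in Ngn3-high and 6.62 CPM in Ngn3-low cells and was carried by 56 Ngn3-high and 6 Ngn3-low cells. Rfx6, a winged-helix factor needed for most islet cell types, was at 582 CPM in Ngn3-high and 39.1 CPM in Ngn3-low cells and was carried by 59 Ngn3-high and 13 Ngn3-low cells. Myt1, a zinc-finger factor, was at 188 CPM in Ngn3-high and 0.216 CPM in Ngn3-low cells and was carried by 53 Ngn3-high and 0 Ngn3-low cells. Nkx2-2, a homeobox factor, was carried by 59 Ngn3-high and 44 Ngn3-low cells, so it was widespread in both gates while its level was 251 CPM in Ngn3-high and 62.4 CPM in Ngn3-low cells.

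A further group was carried by a share of the Ngn3-high cells. Fev, an ETS factor also known from serotonergic neurons, stood at 501, 122 and 342 CPM in the Ngn3-high title numbers and was carried by 40 Ngn3-high and 0 Ngn3-low cells. Pax6, a homeobox factor of islet cells, was at 446 CPM in Ngn3-high and 0.557 CPM in Ngn3-low cells and was carried by 41 Ngn3-high and 0 Ngn3-low cells. Isl1, a LIM-homeobox factor, was uneven, at 102, 406 and 379 CPM in the Ngn3-high title numbers, and was carried by 18 Ngn3-high and 2 Ngn3-low cells. Nkx6-1, Rfx3 and Mnx1 were less than 2-fold apart, with log2 ratios of 0.74, 0.43 and 0.90.

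**Figure D2:**
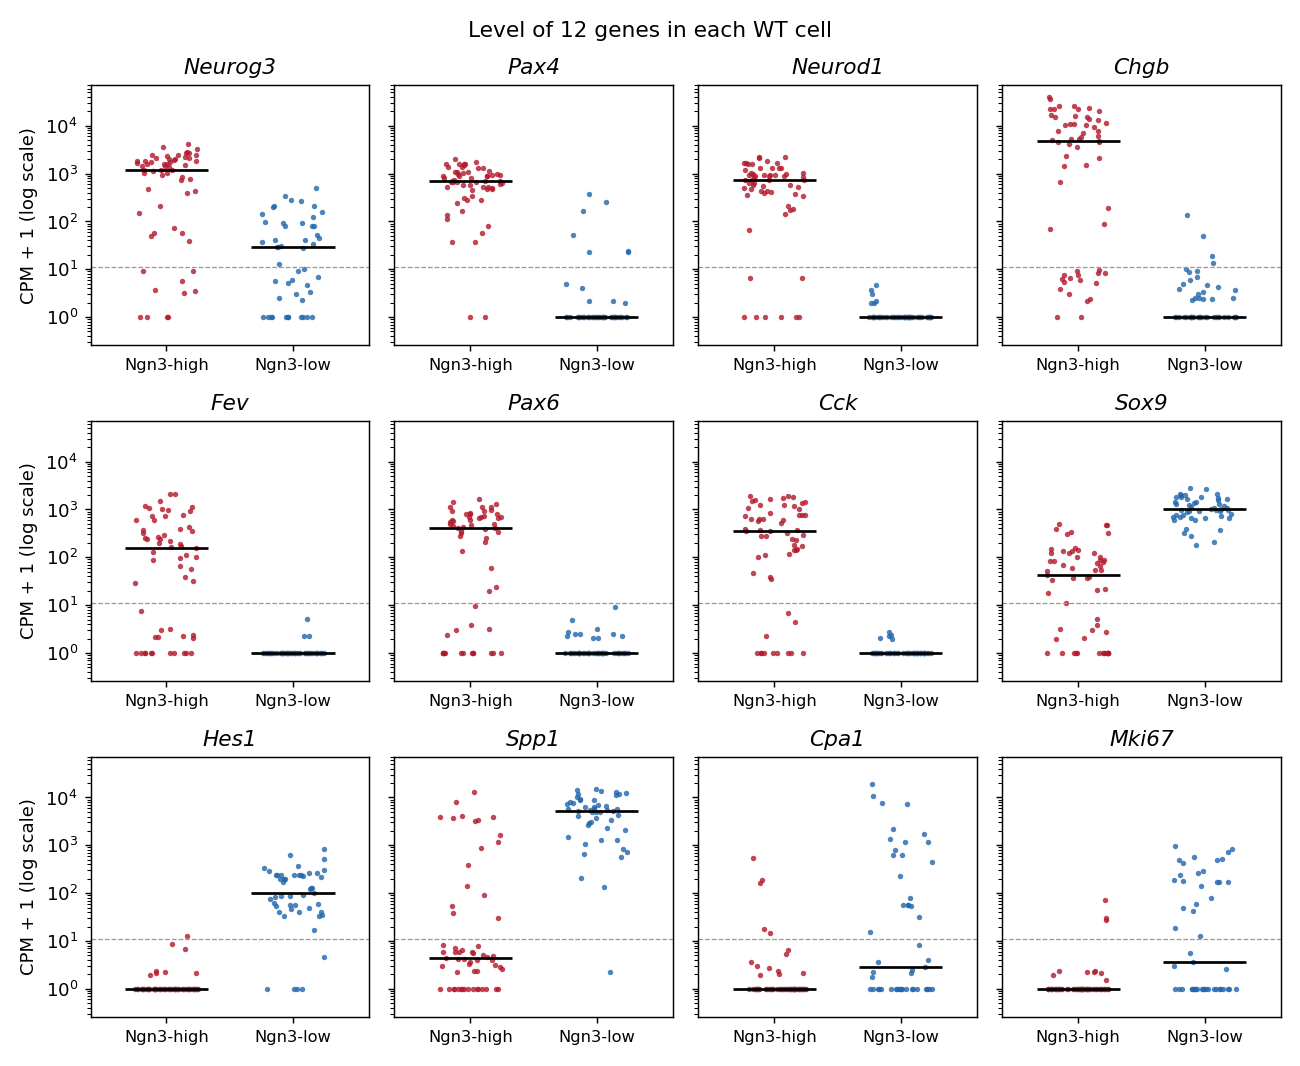
CPM plus 1 on a log scale of 12 genes in each WT Ngn3-high cell (red, left) and each WT Ngn3-low cell (blue, right), with a black line at the median and a dashed line at 10 CPM. Neurod1, Fev, Pax6 and Cck reached 10 CPM in 0 of 49 Ngn3-low cells, and Sox9 in 37 of 59 Ngn3-high and 49 of 49 Ngn3-low cells.

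Pairs of genes in the same cell show how these factors met in Ngn3-high cells. Neurog3 and Neurod1 were carried together by 41 cells, Neurog3 without Neurod1 by 8 and Neurod1 without Neurog3 by 10, so each cell carried at least 1 of them. Of the 42 cells with Chgb, a granule gene, 41 carried Neurod1, 40 carried Pax6, 39 carried Fev and 32 still carried Neurog3. Of the 37 cells with Sox9, 33 carried Neurog3 and 22 carried Chgb. Of the 17 cells with Spp1, a trunk gene, 16 carried Neurog3, 14 carried Dll1 and 5 carried Chgb. Over all 59 Ngn3-high cells, 51 carried Neurod1, 49 Neurog3, 42 Chgb, 41 Pax6, 40 Fev and 21 Dll1.

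In the Ngn3-low gate, 27 cells carried Neurog3 and 0 of them carried Neurod1. Of these Neurog3-carrying cells, 27 carried Sox9, 24 carried Hes1 and 11 carried Mki67, a marker of dividing cells. Pax4 was found in 6 of them, Insm1 in 4 and Dll1 in 12. Over all 49 Ngn3-low cells, 49 carried Sox9, 44 Hes1, 23 Mki67, 7 Pax4, 6 Insm1 and 20 Dll1. Each of the 7 Ngn3-low cells with Pax4 carried both Hes1 and Sox9, which most or all cells of the gate carried.

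Promoters were searched for the genes with the largest ratios in either direction, and some from the higher side are printed. All 12 of the largest higher genes and 8 of the 12 largest lower genes were matched by symbol to promoters of RefSeq on GRCm38.p6. The 250 bases before the annotated start were searched on both strands for CAGATG, an E-box known for Neurog3 and Neurod1, for TGACGTCA, the cyclic AMP response element, and for TGGGAA, the core bound by Rbpj, and matches of different motifs were allowed to overlap. CAGATG was in 1 of 12 higher and 1 of 8 lower genes and in 14.48% of the 27025 promoters searched. These are called all promoters here, though they do not cover every chromosome. TGACGTCA was in 2 of 12 higher genes, Chgb and Pax6, in 0 of 8 lower genes and in 1.62% of all promoters. TGGGAA was in 6 of 12 higher and 1 of 8 lower genes and in 21.5% of all promoters. The windows held 63.3% G and C in the higher genes, 58.9% in the lower genes and 52.9998% over all promoters, and the part of base composition in these shares was not tested. A match describes letters only. The windows printed are Chgb (chr2:132781392-132781641, plus strand), Pax6 (chr2:105668646-105668895, plus strand), Cck (chr9:121495695-121495944, minus strand) and Neurod1 (chr2:79456637-79456886, minus strand), each 5′ to 3′ toward its gene. Capitals mark TGACGTCA in Chgb and Pax6, TGGGAA and then CAGATG in Cck, and Neurod1 holds none of them.
Chgb: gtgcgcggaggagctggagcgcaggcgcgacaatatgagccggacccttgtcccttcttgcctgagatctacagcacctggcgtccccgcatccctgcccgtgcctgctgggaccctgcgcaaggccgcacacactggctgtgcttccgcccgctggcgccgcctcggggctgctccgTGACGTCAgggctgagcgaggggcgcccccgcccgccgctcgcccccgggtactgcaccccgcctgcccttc
Pax6: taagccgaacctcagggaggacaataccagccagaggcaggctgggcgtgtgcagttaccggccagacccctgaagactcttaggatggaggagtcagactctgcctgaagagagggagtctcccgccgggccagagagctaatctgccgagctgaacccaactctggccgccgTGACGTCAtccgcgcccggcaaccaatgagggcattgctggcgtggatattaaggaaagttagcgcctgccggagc
Cck: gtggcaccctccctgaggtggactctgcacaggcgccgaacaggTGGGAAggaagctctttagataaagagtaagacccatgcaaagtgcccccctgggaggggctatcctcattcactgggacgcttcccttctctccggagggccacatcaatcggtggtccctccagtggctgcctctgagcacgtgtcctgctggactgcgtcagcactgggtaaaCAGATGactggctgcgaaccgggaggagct
Neurod1: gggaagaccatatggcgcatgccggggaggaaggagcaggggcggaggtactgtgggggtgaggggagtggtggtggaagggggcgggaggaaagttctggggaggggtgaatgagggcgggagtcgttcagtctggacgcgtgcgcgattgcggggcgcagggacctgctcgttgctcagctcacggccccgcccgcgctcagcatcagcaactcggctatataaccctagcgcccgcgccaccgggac

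Secretory granule genes were higher in Ngn3-high cells, 21 of 24 of them at least 2-fold and 0 lower, with a median log2 ratio of 4.23. Chgb, a granin that packs hormones into granules, stood at 6792, 9522 and 8967 CPM in the Ngn3-high title numbers, against 10.8, 14.4, 0.886, 0 and 1.02 CPM in the Ngn3-low title numbers. Its log2 ratio of 9.86 was the largest among the 24 genes chosen for the size of their ratio. It ran from 0 through a median of 4924 to 40468 CPM among Ngn3-high cells, and was carried by 42 Ngn3-high and 4 Ngn3-low cells. Chga, the related granin, was at 749 CPM in Ngn3-high and 0.835 CPM in Ngn3-low cells. Chga was thus near 0 over the Ngn3-low gate, while Chgb was low there but uneven between title numbers, from 0 to 14.4 CPM. Of the enzymes that mature prohormones, Cpe was at 1003 CPM in Ngn3-high and 13.98 CPM in Ngn3-low cells, Pcsk1 at 321 CPM in Ngn3-high and 3.53 CPM in Ngn3-low cells and Pcsk2 at 199.6 CPM in Ngn3-high and 0.928 CPM in Ngn3-low cells. Syt13, a synaptotagmin, was carried by 59 Ngn3-high and 8 Ngn3-low cells, at 863 CPM in Ngn3-high and 22.5 CPM in Ngn3-low cells. Ptprn2, a granule membrane protein, was at 346 CPM in Ngn3-high and 1.76 CPM in Ngn3-low cells. Vamp2, a vesicle SNARE of many cell types, was at 109 CPM in Ngn3-high and 66.96 CPM in Ngn3-low cells, under 2-fold.

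Peptide hormones were uneven, with 6 of 10 at least 2-fold higher and 1 lower. Of these, 4 of the higher and 0 of the lower genes were apart. Cck, known as a gut and neuronal peptide, was broad: it stood at 529, 536 and 720.0 CPM in the Ngn3-high title numbers, at no more than 0.468 CPM in any Ngn3-low title number, and was carried by 47 Ngn3-high and 0 Ngn3-low cells. Pyy was at 146 CPM in Ngn3-high and 1.48 CPM in Ngn3-low cells, was carried by 13 Ngn3-high and 3 Ngn3-low cells and reached 4192 CPM in 1 Ngn3-high cell. Gast (gastrin) was highest in number 5, at 3.75, 153 and 2.90 CPM in Ngn3-high title numbers 1, 5 and 6, and was carried by 8 Ngn3-high and 0 Ngn3-low cells. Pyy and Gast reads were therefore concentrated in few cells, unlike those of Cck. Islet hormones were scarce in both gates. Gcg (glucagon) was at 2.27 CPM in Ngn3-high and 5.69 CPM in Ngn3-low cells and was carried by 5 Ngn3-high and 7 Ngn3-low cells. Ins1 and Ins2 were carried by 2 and 4 Ngn3-high cells and by 0 and 1 Ngn3-low cells. Ghrl (ghrelin) had no read in Ngn3-high cells and 0.309 CPM in Ngn3-low cells.

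Genes of mature beta cell function were partly higher, 8 of 15 at least 2-fold and 2 lower. Of these, 3 of the higher and 1 of the lower genes were apart. In all, 5 members were 2-fold higher in both shared title numbers. The list median was 1.503 over the gates, 0.55 within number 1 and 1.09 within number 5, with 7 of the 15 members at a mean of 5 CPM or more. Slc2a2, the glucose transporter of beta cells and of pancreatic progenitors, was lower, at 6.87 CPM in Ngn3-high and 167 CPM in Ngn3-low cells, and was carried by 4 Ngn3-high and 45 Ngn3-low cells. Gjd2, a gap junction protein of beta cells, was at 22.3 CPM in Ngn3-high cells and had no read in Ngn3-low cells, at least 239.9-fold higher than a floor of 3 reads over the Ngn3-low gate. Ucn3 and Mafa, markers of mature beta cells, had no read in either gate.

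Ion channel genes were 9 of 14 higher and 0 lower. Cacna2d1, a calcium channel subunit, was at 469 CPM in Ngn3-high and 4.92 CPM in Ngn3-low cells, and Kcnh6, a potassium channel, at 135 CPM in Ngn3-high and 0.866 CPM in Ngn3-low cells. Of 8 genes of serotonin synthesis and transport, 4 were higher and 1 lower, and 3 of the higher and 0 of the lower genes were apart. In all, 4 members were 2-fold higher and 0 lower in both shared title numbers. Gch1, which makes the cofactor of serotonin synthesis, was at 225 CPM in Ngn3-high and 11.6 CPM in Ngn3-low cells, whereas Tph1, the committing enzyme, was carried by 1 Ngn3-high and 0 Ngn3-low cells. Slc6a4, the serotonin transporter, was the lower one, with no read in Ngn3-high cells and 12.9 CPM in Ngn3-low cells. Of the neuronal cytoskeleton and guidance genes, 8 of 20 were higher and 3 lower. Tubb3, the neuronal beta tubulin, was at 419 CPM in Ngn3-high and 0.247 CPM in Ngn3-low cells and was carried by 51 Ngn3-high and 0 Ngn3-low cells. Map1b, a microtubule-binding protein, was at 1131 CPM in Ngn3-high and 15.4 CPM in Ngn3-low cells. Nrp1, a semaphorin receptor, was lower, at 11.5 CPM in Ngn3-high and 107 CPM in Ngn3-low cells.

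Other genes with the largest ratios lay outside these lists. Slc38a5, an amino acid transporter, was at 3252 CPM in Ngn3-high and 8.44 CPM in Ngn3-low cells and was carried by 53 Ngn3-high and 5 Ngn3-low cells. Vwa5b2 was at 939 CPM in Ngn3-high and 4.39 CPM in Ngn3-low cells and was carried by 59 Ngn3-high and 2 Ngn3-low cells. Lhx1, a LIM-homeobox factor, and Hpca, a neuronal calcium sensor, were at 205 and 192 CPM in Ngn3-high cells, and each had 2 reads in the whole Ngn3-low gate. On the lower side, Cdc42ep1, an effector of Cdc42, was at 1.56 CPM in Ngn3-high and 272 CPM in Ngn3-low cells and was carried by 3 Ngn3-high and 49 Ngn3-low cells. Cldn10, a tight junction protein, was at 0.414 CPM in Ngn3-high and 118 CPM in Ngn3-low cells, and Cckar, the receptor for Cck, at 0.0919 CPM in Ngn3-high and 112 CPM in Ngn3-low cells. Mycn, a Myc family factor, was at 0.735 CPM in Ngn3-high and 96.9 CPM in Ngn3-low cells.

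**Figure D3:**
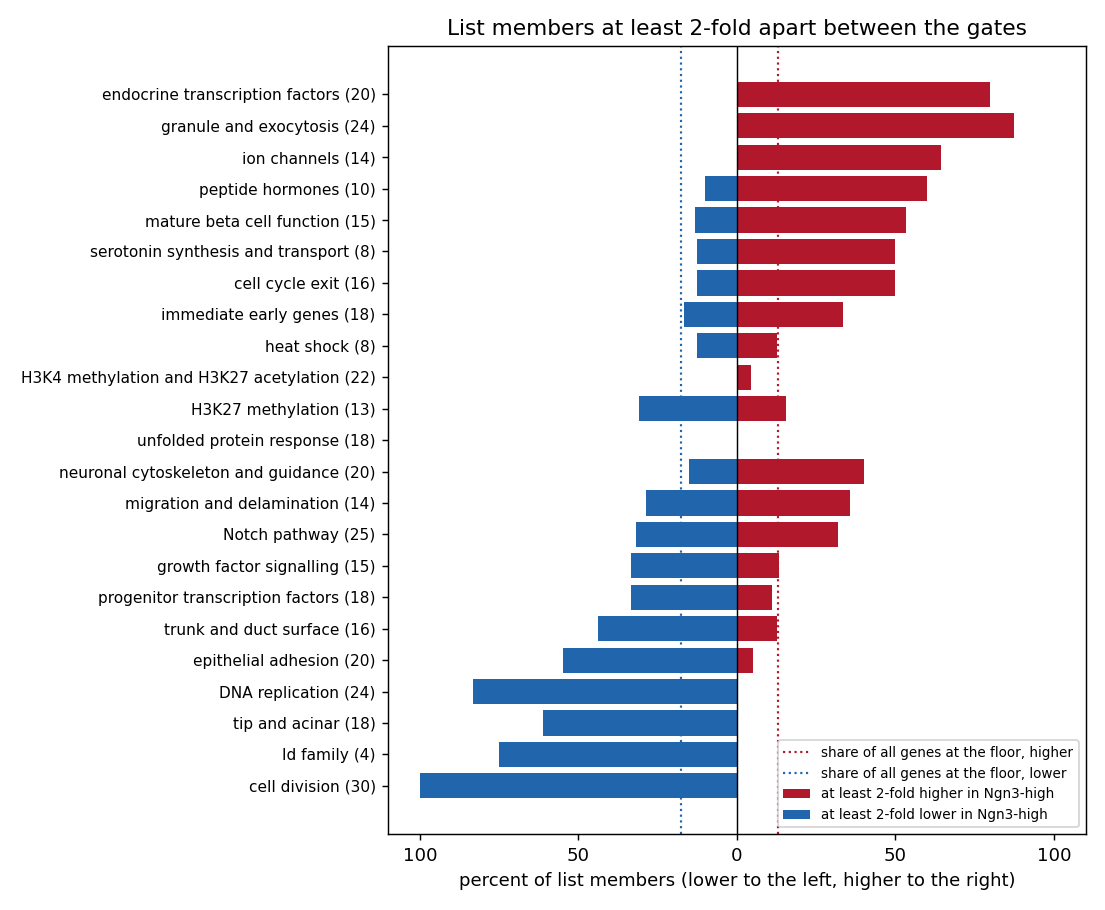
Percent of the members of 23 gene lists that were at least 2-fold higher (right, red) or lower (left, blue) in WT Ngn3-high than in WT Ngn3-low cells, with the number of members in brackets. Dotted lines mark the 12.9% higher and 17.498% lower among the 11144 genes at a mean of 5 CPM or more, and cell division stands at 30 of 30 lower. The bars also count members under that level.

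Trunk progenitor genes were lower in part. Of 18 progenitor transcription factors, 6 were at least 2-fold lower and 2 higher. Of these, 1 of the higher and 3 of the lower genes were apart. In all, 0 members were 2-fold higher and 5 lower in both shared title numbers. The median of -0.79 over the gates was -0.26 within number 1 and -0.31 within number 5. Sox9 (ENSMUSG00000000567, chr11:112782210-112787757), which maintains the progenitor pool, stood at 92.1, 108 and 47.04 CPM in the Ngn3-high title numbers, against 1323, 1024, 1157, 1192 and 978 CPM in the Ngn3-low title numbers. The title numbers were apart, and 37 of 59 Ngn3-high cells still carried it, beside 49 of 49 Ngn3-low cells. Onecut1, a factor upstream of Neurog3, was at 0.781 CPM in Ngn3-high and 95.6 CPM in Ngn3-low cells and was carried by 1 Ngn3-high and 47 Ngn3-low cells. Pdx1 and Prox1, which persist in endocrine cells, had log2 ratios of 0.17 and 0.09, while Foxa2, a forkhead factor, was higher, at 219.9 CPM in Ngn3-high and 89.7 CPM in Ngn3-low cells. The list thus held factors near 0 in Ngn3-high cells beside factors close between the gates. Of 16 trunk and duct surface genes, 7 were lower and 2 higher. Their median of -0.92 was -0.91 within number 1 and -0.24 within number 5. Spp1 (osteopontin) was at 803 CPM in Ngn3-high and 6041 CPM in Ngn3-low cells and was carried by 17 Ngn3-high and 48 Ngn3-low cells. Among Ngn3-high cells its median was 3.44 CPM and its highest value 13232 CPM, within the range of Ngn3-low cells. Among keratins, Krt18 was lower, at 107 CPM in Ngn3-high and 500.1 CPM in Ngn3-low cells, and Krt7 higher, at 752 CPM in Ngn3-high and 212 CPM in Ngn3-low cells.

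Notch pathway genes lay in both directions, with 8 of 25 higher and 8 lower. Their median log2 ratio of 0.00 became -0.07 with ERCC scaling. Among receptors, Notch2 was at 6.16 CPM in Ngn3-high and 262 CPM in Ngn3-low cells and was carried by 9 Ngn3-high and 49 Ngn3-low cells, and Notch1 was at 19.8 CPM in Ngn3-high and 201 CPM in Ngn3-low cells. Among ligands, Dll3 was at 109 CPM in Ngn3-high and 1.42 CPM in Ngn3-low cells, Dll4 at 112 CPM in Ngn3-high and 9.74 CPM in Ngn3-low cells and Jag1 at 2.78 CPM in Ngn3-high and 56.2 CPM in Ngn3-low cells. Dll1, the ligand that Neurog3-expressing cells present to their neighbours, stood at 142, 151 and 43.3 CPM in the Ngn3-high title numbers and at 79.7, 53.9, 53.4, 41.9 and 20.003 CPM in the Ngn3-low title numbers. Its title numbers overlapped, and it was carried by 21 of 59 Ngn3-high and 20 of 49 Ngn3-low cells. Mfng, which adds sugar to Notch receptors, was at 311 CPM in Ngn3-high and 12.2 CPM in Ngn3-low cells. Both named receptors and Jag1 were lower over the gates, and Dll3 and Dll4 were higher. Dll1 was higher in summed level over the gates but was not apart. Of the target repressors, Hes1 (ENSMUSG00000022528, chr16:30065357-30067796) stood at 0.852, 0 and 0.414 CPM in the Ngn3-high title numbers, against 272, 147, 97.5, 132 and 161 CPM in the Ngn3-low title numbers, and was carried by 1 Ngn3-high and 44 Ngn3-low cells. Hes6, which opposes Hes1, was at 464 CPM in Ngn3-high and 105 CPM in Ngn3-low cells.

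Id proteins, which block helix-loop-helix factors, were lower in 3 of 4 cases, 3 of them apart. The remaining member lay under a mean of 5 CPM and was less than 2-fold different over the gates. It was at least 2-fold higher in Ngn3-high cells within both numbers 1 and 5. Id3 was at 5.86 CPM in Ngn3-high and 203 CPM in Ngn3-low cells, Id2 at 59.7 CPM in Ngn3-high and 454 CPM in Ngn3-low cells and Id1 at 28.3 CPM in Ngn3-high and 132 CPM in Ngn3-low cells. Of 15 growth factor signalling genes, 5 were lower and 2 higher. Fgfr2, the receptor for mesenchymal FGFs, was at 39.5 CPM in Ngn3-high and 288 CPM in Ngn3-low cells and was carried by 23 Ngn3-high and 46 Ngn3-low cells. Erbb2 and Erbb3, receptor partners of the EGF receptor family, were both lower. Erbb2 was at 20.2 CPM in Ngn3-high and 89.6 CPM in Ngn3-low cells, and Erbb3 at 26.1 CPM in Ngn3-high and 111 CPM in Ngn3-low cells. Etv5, a target of FGF signals, was higher, at 55.4 CPM in Ngn3-high and 21.96 CPM in Ngn3-low cells.

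All 30 cell division genes were at least 2-fold lower in Ngn3-high cells, with a median log2 ratio of -4.11 over the gates, -4.41 within number 1 and -1.62 within number 5. Mki67, the proliferation marker, stood at 1.06, 5.52 and 0.0828 CPM in the Ngn3-high title numbers, against 301, 191, 21.9, 68.01 and 94.6 CPM in the Ngn3-low title numbers, and was carried by 3 of 59 Ngn3-high and 23 of 49 Ngn3-low cells. Aurkb, a mitotic kinase, had no read in Ngn3-high cells and 88.3 CPM in Ngn3-low cells, at least 1281-fold lower with the Ngn3-high gate set at a floor of 3 reads. Cells of the gates overlapped over the list, which summed to 6.10, 85.5 and 6108 CPM in the lowest, median and highest Ngn3-high cell and to 21.3, 278 and 18817 CPM in those of the Ngn3-low gate. By title number it summed to 286, 259.7 and 92.3 CPM in the Ngn3-high gate and to 5877, 4492, 425, 2879.8 and 1164 CPM in the Ngn3-low gate. Ngn3-low number 3 was the lowest of its gate, and 10 of the 30 genes were apart. Within numbers 1 and 5, 19 of the 30 were 2-fold lower in both.

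DNA replication genes were lower in 20 of 24 cases, 15 of them apart. Rrm2, a subunit of ribonucleotide reductase, was at 10.2 CPM in Ngn3-high and 257 CPM in Ngn3-low cells, while Mcm2, of the replicative helicase, was at 171 CPM in Ngn3-high and 263 CPM in Ngn3-low cells and was carried by 48 Ngn3-high and 47 Ngn3-low cells. Cell cycle exit genes were higher in 8 of 16 cases and lower in 2, with 8 of the higher and 0 of the lower genes apart. Their median log2 ratio was 0.82 over the gates, 0.27 within number 1 and 0.76 within number 5. Cdkn1a, the p21 inhibitor, stood at 503, 689.6 and 816 CPM in the Ngn3-high title numbers, against 306, 108, 195, 78.3 and 299 CPM in the Ngn3-low title numbers. No Ngn3-high title number overlapped a Ngn3-low one for Cdkn1a. Gadd45a, a stress and growth arrest gene, was at 321 CPM in Ngn3-high and 5.81 CPM in Ngn3-low cells, and Btg2, an antiproliferative gene, at 737 CPM in Ngn3-high and 45.1 CPM in Ngn3-low cells. Pak3, a kinase linked to cell cycle exit of endocrine precursors, was at 262 CPM in Ngn3-high and 7.61 CPM in Ngn3-low cells. Cdkn1c, the p57 inhibitor, was at 182 CPM in Ngn3-high and 235 CPM in Ngn3-low cells, under 2-fold.

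Genes of H3K27 methylation lay in both directions. Kdm6b (also called Jmjd3, ENSMUSG00000018476, chr11:69398508-69420367), the H3K27 demethylase that the study deleted in other cells, stood at 295, 246 and 219.9 CPM in the Ngn3-high title numbers, against 166, 132, 122, 118 and 73.9 CPM in the Ngn3-low title numbers. Its title numbers were apart, but its cells overlapped, from 78.4 to 513 CPM in Ngn3-high and from 12.2 to 323 CPM in Ngn3-low cells, and every cell carried it. The log2 ratio was 1.01, just past 2-fold, and 0.66 with ERCC scaling. Ezh2, the H3K27 methyltransferase, was at 68.8 CPM in Ngn3-high and 145 CPM in Ngn3-low cells, its partner Eed at 20.5 CPM in Ngn3-high and 58.2 CPM in Ngn3-low cells and its partner Suz12 at 29.5 CPM in Ngn3-high and 38.8 CPM in Ngn3-low cells. Over the 13 genes, 2 were higher and 4 lower, and the median of 0.21 became -0.13 with ERCC scaling and was 0.29 within number 1 and -0.18 within number 5. Among 22 genes for H3K4 methyl and H3K27 acetyl marks, 1 was higher and 0 lower, and the median of 0.23 became -0.10 and was 0.32 within number 1 and -0.13 within number 5. The higher one was Paxip1, a member of the Kmt2c and Kmt2d complexes, at 129.5 CPM in Ngn3-high and 49.3 CPM in Ngn3-low cells.

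Epithelial adhesion genes were lower in 11 of 20 cases, 11 of them apart, and higher in 1. Cdh1 (E-cadherin) was at 173 CPM in Ngn3-high and 588 CPM in Ngn3-low cells and was still carried by 48 Ngn3-high and 49 Ngn3-low cells. Cldn3, a tight junction protein, was at 53.1 CPM in Ngn3-high and 357 CPM in Ngn3-low cells, and Itgb4, a hemidesmosome integrin, at 0.712 CPM in Ngn3-high and 27.99 CPM in Ngn3-low cells. Cldn4 was the higher one, at 473 CPM in Ngn3-high and 176 CPM in Ngn3-low cells. Of 14 migration and delamination genes, 5 were higher and 4 lower, with a median of 0.03 that became -0.21 with ERCC scaling, and 3 of the higher and 2 of the lower genes were apart. Snai1, a repressor of E-cadherin, was at 10.8 CPM in Ngn3-high and 1.36 CPM in Ngn3-low cells and was carried by 11 Ngn3-high and 3 Ngn3-low cells. Vim, an intermediate filament of mesenchyme, was lower, at 108 CPM in Ngn3-high and 339.5 CPM in Ngn3-low cells.

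Unfolded protein response genes were close between the gates, and some immediate early genes were not. Of 18 unfolded protein response genes, 0 were 2-fold higher and 0 lower, and the median of 0.11 became -0.22 with ERCC scaling and was 0.12 within number 1 and -0.11 within number 5. Hspa5, the chaperone BiP, was at 645 CPM in Ngn3-high and 716 CPM in Ngn3-low cells. Of 8 heat shock genes, 1 was higher and 1 lower. Of 18 immediate early genes, 6 were higher and 3 lower, and 3 of the higher and 2 of the lower genes were apart. Among these factors of early response, Egr1 was at 102 CPM in Ngn3-high and 20.8 CPM in Ngn3-low cells, Jun at 73.7 CPM in Ngn3-high and 259.7 CPM in Ngn3-low cells and Myc at 1.63 CPM in Ngn3-high and 54.99 CPM in Ngn3-low cells.

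Exocrine genes were high in some Ngn3-low cells. Of 18 tip and acinar genes, 11 were at least 2-fold lower in Ngn3-high cells and 0 higher, but 0 were apart. The list median was -1.998 over the gates, 0.00 within title number 1 and 0.47 within title number 5. Cpa1, a carboxypeptidase of tip and acinar cells, stood at 16.5, 21.1 and 0.0828 CPM in Ngn3-high title numbers 1, 5 and 6, against 10.3, 910.3, 1871, 2236 and 9.49 CPM in Ngn3-low title numbers 1 to 5. The high values were those of Ngn3-low numbers 2, 3 and 4. Its log2 ratio was -6.17 over the gates, 0.63 within number 1 and 1.07 within number 5. It was carried by 5 Ngn3-high and 21 Ngn3-low cells, and the highest Ngn3-low cell reached 19273 CPM. Of the 21 Ngn3-low cells with Cpa1, 21 carried Sox9, 10 carried Ptf1a, the acinar master factor, and 8 carried Neurog3. Over all 49 Ngn3-low cells, 49 carried Sox9, 11 Ptf1a and 27 Neurog3. Clps (colipase) was at 786 CPM in Ngn3-high and 491 CPM in Ngn3-low cells.

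**Figure D4:**
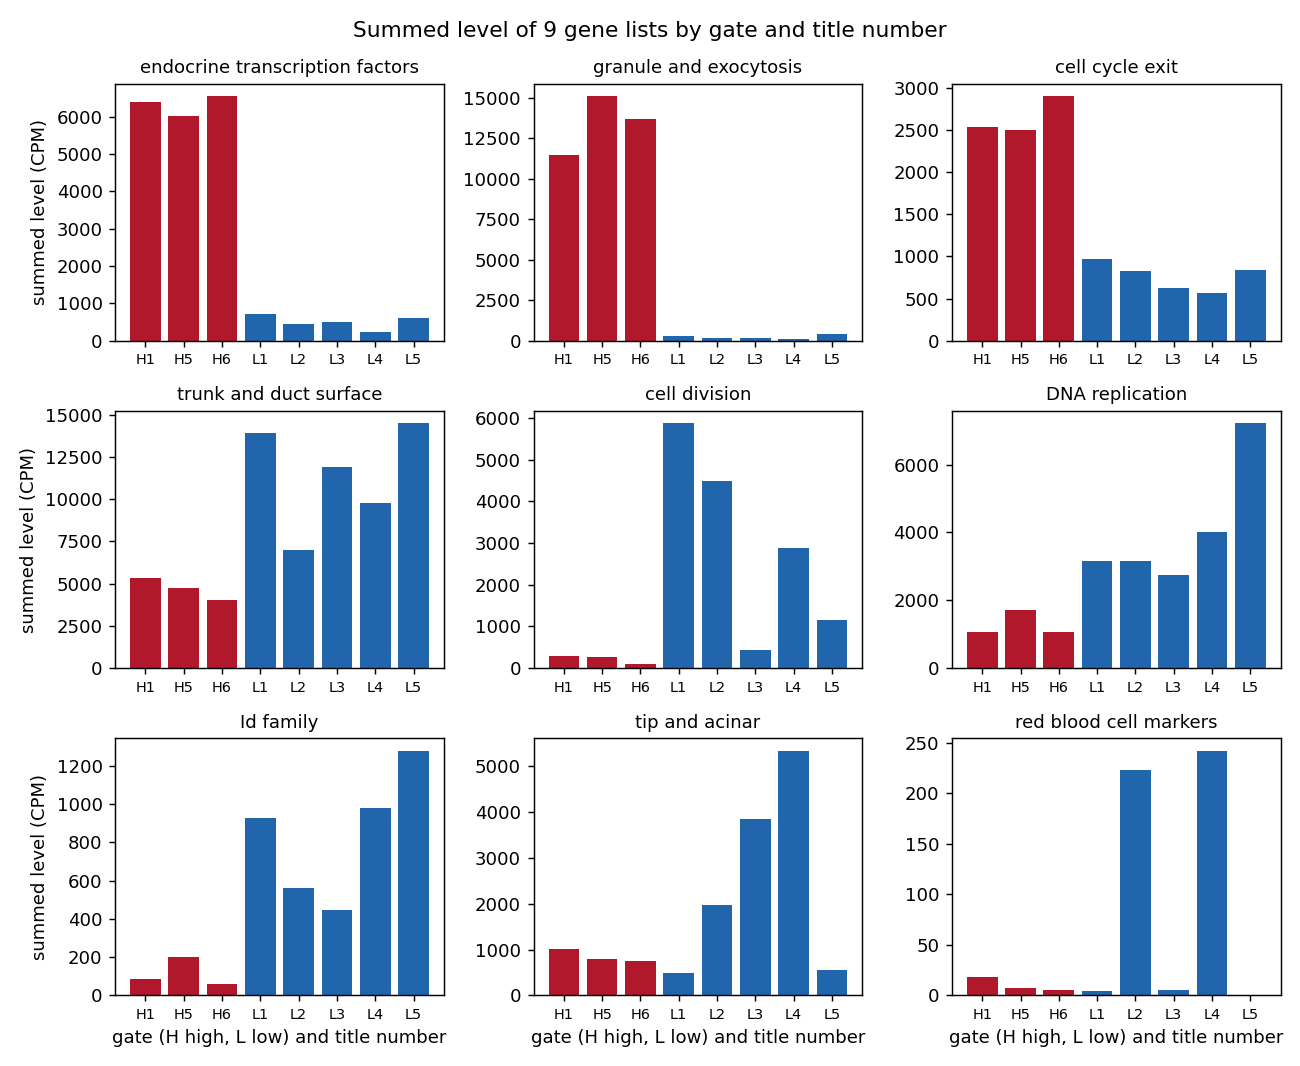
Summed CPM of 9 gene lists in each title number of the WT Ngn3-high gate (H, red) and the WT Ngn3-low gate (L, blue), each bar being the summed reads of 5 to 27 cells. Endocrine factors, granule genes and cell cycle exit genes stood higher in all Ngn3-high than in all Ngn3-low numbers, while tip and acinar genes were highest in Ngn3-low numbers 3 and 4.

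Markers of other cell types were at low levels in both gates, with some exceptions. The 10 red blood cell markers summed to 12.7 CPM in Ngn3-high and 118 CPM in Ngn3-low cells, 6 of them 2-fold lower. They were highest in Ngn3-low numbers 2 and 4, at 223 and 242 CPM, against at most 18.1 CPM in every other title number of either gate. Per cell of the Ngn3-low gate, the sum had a median of 1.78 CPM and a highest value of 3066 CPM, so the reads were uneven between cells. Tip and acinar genes summed to 1979, 3860 and 5345 CPM in Ngn3-low numbers 2, 3 and 4, while red blood cell markers summed to 5.10 CPM in number 3. The part of red blood cell RNA in the tip and acinar levels was not tested. The 13 white blood cell markers summed to 9.19 CPM in Ngn3-high and 10.3 CPM in Ngn3-low cells, with Ptprc at 0 CPM in Ngn3-high and 0.155 CPM in Ngn3-low cells. The 11 endothelial markers summed to 9.33 CPM in Ngn3-high and 4.33 CPM in Ngn3-low cells, with Cdh5, Erg and Emcn at 0 in both. The 10 mesenchyme markers summed to 4.66 CPM in Ngn3-high and 6.96 CPM in Ngn3-low cells, and the 6 mesothelium markers to 4.18 CPM in Ngn3-high and 1.55 CPM in Ngn3-low cells. The 9 neural crest and glia markers summed to 33.7 CPM in Ngn3-high and 126 CPM in Ngn3-low cells, most of it Erbb3, with Fabp7 and Foxd3 at 0 in both. The 8 liver markers summed to 37.2 CPM in Ngn3-high and 134 CPM in Ngn3-low cells, with Afp at 16.6 CPM in Ngn3-high and 99.2 CPM in Ngn3-low cells and Alb at 0 CPM in Ngn3-high and 0.247 CPM in Ngn3-low cells. The 8 intestine markers summed to 109.6 CPM in Ngn3-high and 12.8 CPM in Ngn3-low cells, nearly all Vil1 at 105 CPM in Ngn3-high and 11.9 CPM in Ngn3-low cells.

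Bulk libraries of the same gates allowed a replicated test. Of 15684 genes tested with edgeR over 6 libraries, 4349 rose (27.7%) and 4729 fell (30.2%) in bulk Ngn3-high relative to bulk Ngn3-low libraries. In bulk samples, fewer cells of a type and less RNA per cell cannot be told apart. The 6 libraries held 11957415 to 17760214 reads in genes. Separate litters are not stated for the libraries of a group, so these p-values cover only how the libraries themselves vary. Of the 1041 genes higher and apart in single cells, 1039 were tested, 970 rose (93.4%) and 16 fell. Of the 1128 lower and apart, 1126 were tested, 1040 fell (92.4%) and 3 rose.

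Neurog3, Neurod1, Kdm6b, Sox9 and Hes1 were called in bulk in their single-cell direction, and Dll1 and Etv5 were not called. Neurog3 averaged 1141 ± 71.6 CPM in bulk Ngn3-high and 177 ± 22.8 CPM in bulk Ngn3-low libraries (SD, n = 2 each), and rose by 2.77 ± 0.15 (SE) on the log2 scale (edgeR adjusted p = 1.75e-06). Neurod1 had 255 and 331 CPM in the bulk Ngn3-high libraries, against 2.98 and 2.78 CPM in the bulk Ngn3-low libraries, and rose by 6.74 ± 0.19 (edgeR adjusted p = 2.83e-07). Kdm6b rose by 0.99 ± 0.12 (edgeR adjusted p = 0.000202), beside a single-cell log2 ratio of 1.01. Sox9 fell by 2.26 ± 0.11 (edgeR adjusted p = 1.03e-06), and Hes1 by 3.37 ± 0.42 (edgeR adjusted p = 0.000184). Dll1 had a bulk log2 fold change of -0.26 ± 0.18 (edgeR adjusted p = 0.251), beside a single-cell ratio of 1.06, and Etv5 one of -0.13 (edgeR adjusted p = 0.411), beside 1.30. Of the lists, 19 of 19 tested endocrine factors and 24 of 24 granule genes rose. All 30 cell division genes fell, as did 22 of 24 DNA replication genes. Of 17 tested tip and acinar genes, 7 fell and 0 rose, beside 30.2% falls over all tested genes. Their sums were 259 and 238 CPM in the bulk Ngn3-high libraries, against 896 and 759 CPM in the bulk Ngn3-low libraries. Of the genes for H3K4 methyl and H3K27 acetyl marks, 15 of 22 rose and 1 fell, with a bulk median log2 fold change of 0.48, beside 0.23 in single cells. Bulk calls had no limit on fold change, unlike the 2-fold calls in single cells, so the counts are not alike.

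Islet hormones, scarce in single cells, gave other values in bulk. Gcg had 866 and 1157 CPM in the bulk Ngn3-high libraries, against 259.8 and 258 CPM in the bulk Ngn3-low libraries, and rose by 2.05 on the log2 scale (edgeR adjusted p = 0.000621), beside a single-cell log2 ratio of -1.03. Ghrl rose by 5.94 (edgeR adjusted p = 3.96e-06). Ins1 had 90.3 and 86.9 CPM in the bulk Ngn3-high libraries, against 48.8 and 3.03 CPM in the bulk Ngn3-low libraries, and the groups differed by 1.82 on the log2 scale with an adjusted p of 0.104 from edgeR.

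Some immediate early genes lay in opposite directions in single cells and in bulk. Of 18 tested, 14 fell and 0 rose in bulk. Egr1 had 566 and 403 CPM in the bulk Ngn3-high libraries, against 962 and 959 CPM in the bulk Ngn3-low libraries, and fell by 0.90 (edgeR adjusted p = 0.0102), beside a single-cell log2 ratio of 2.24. Dusp1, a phosphatase of the same list, fell by 1.27 (edgeR adjusted p = 0.000127), beside a single-cell ratio of 2.82. Tmsb4x, an actin-binding thymosin, was at 1831 CPM in Ngn3-high and 86.0 CPM in Ngn3-low cells and was carried by every Ngn3-high cell and 83.7% of Ngn3-low cells. In bulk it had 519 and 503 CPM in the bulk Ngn3-high libraries, against 1239 and 1010.1 CPM in the bulk Ngn3-low libraries, and fell by 1.06 (edgeR adjusted p = 0.00145). Itga4, an integrin, and Fmnl1, a formin, were also among the 16 genes that were higher in single Ngn3-high cells and fell in bulk. The 3 genes lower in single cells that rose in bulk were Anpep, Gcnt2 and Akr1c19. Egr1, Dusp1 and these genes were picked out after their values were seen.

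Markers of white blood cells and endothelium differed between the bulk gates more than between the single-cell gates. White blood cell markers summed to 25.1 and 12.5 CPM in the bulk Ngn3-high libraries, against 3413 and 2826 CPM in the bulk Ngn3-low libraries, and 13 of 13 tested fell. Endothelial markers summed to 10.6 and 7.36 CPM in the bulk Ngn3-high libraries, against 494 and 546 CPM in the bulk Ngn3-low libraries, and 11 of 11 fell. Their part in the genes that differed between single cells and bulk was not tested.

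**Figure D5:**
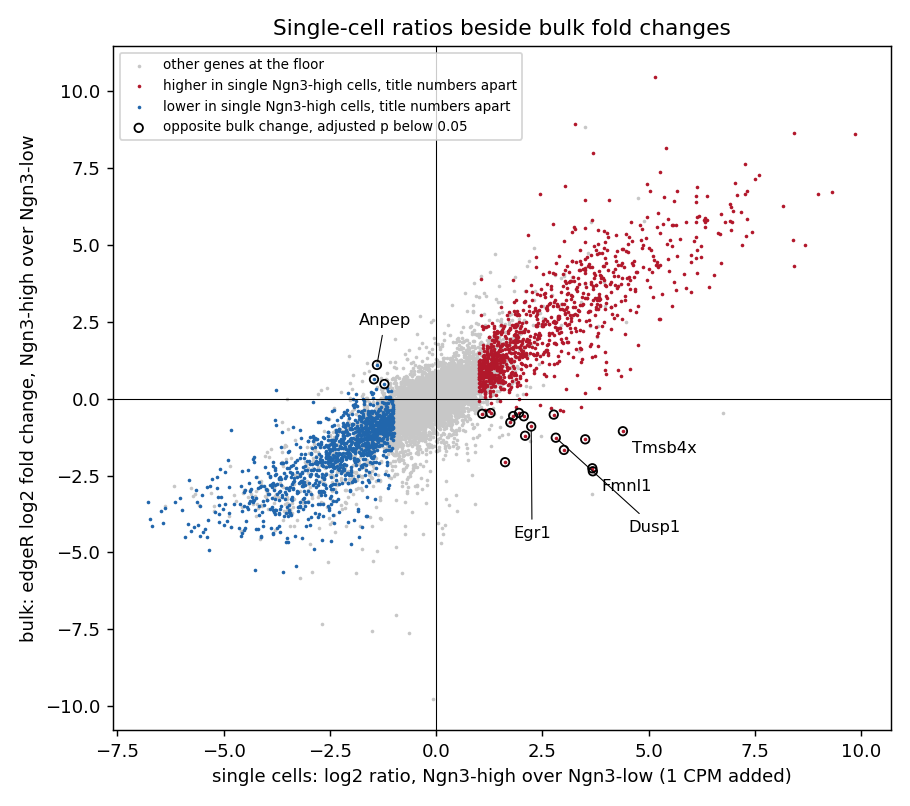
Log2 ratio of WT Ngn3-high over WT Ngn3-low single cells (horizontal axis, 1 CPM added) and edgeR log2 fold change of bulk Ngn3-high over bulk Ngn3-low libraries (vertical axis) for genes at 5 CPM or more. Most red and blue points, the genes apart between title numbers, have the same sign on both axes, and black circles mark the 16 and 3 with an opposite bulk call.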

How the data were processed

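RNA of single cells was amplified with Smart-seq2 and ERCC spike-in, per the labels' protocols, without molecular identifiers, and RNA of bulk sorted cells was sequenced from poly(A) libraries. Single-cell and bulk counts per gene were made by the authors with TopHat2 2.1.0 and Bowtie2 on mm10 and, for single cells, HTSeq 0.6.0, per the submitters' processing notes, which also name DESeq 1.20.0. The deposited counts were used as they stand, and the RPKM values that the authors deposited (reads scaled by gene length and library) served as an alternative. Annotation, strand setting and the version of Bowtie2 are not stated in the labels or notes used, so overlapping, antisense and near-identical genes cannot be told apart in these counts.

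The 92 ERCC entries were left out of CPM. Reads were summed over the cells of a gate, and genes with a mean gate level under 5 CPM were left out of the counts over all genes. Of the gene entries, 39864 matched the reference table, and Yam1 held 127251 CPM in Ngn3-high and 148779 CPM in Ngn3-low cells. A count of 0 was read against a floor of 3 reads over the gate. No doublet caller was run and no cell was left out, and among the 108 cells 0 pairs were identical. Genes are named if they belong to a fixed set of 20, to the 12 largest ratios in each direction (at least 20 CPM and 25% of cells in the higher gate) or to the up to 4 largest of a list. The text also names other list members, and some genes are not reported here. The cells, the 31 gene lists and the rules were chosen with earlier results of these data known.

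Bulk counts were fitted with edgeR 4.0.16 in R 4.3.3 (quasi-likelihood test, TMM factors, all 6 libraries, Benjamini-Hochberg adjustment, threshold 0.05), and DESeq2 1.42.0 was an alternative. The ratio of gate sums and the bulk fit were tested on simulated data. The rule for genes apart, the shares of cells and the list counts were not. Bulk libraries share the numbers 1 and 2 across groups, and these were not taken as pairs.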

Additional observations from a re-analysis of the deposited data

How the results depend on the processing

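The 1437 genes at least 2-fold higher became 921 with the authors' RPKM, 2226 with no filter on low values, 915 with a floor of 20 CPM and 2264 within title number 5, and the 1950 lower genes became 1190, 2973 and 1098 under the first 3 of these and 1261 with a pseudocount of 10 CPM. These settings test other numbers of genes or cells or, for the pseudocount, shrink ratios of low genes by construction. With ERCC scaling 593 genes in place of 1041 were higher and apart, and without cells under 500000 reads 645 in place of 1128 were lower and apart; the cause was not tested. Leaving out 1 title number of a gate at a time gave 1422 to 1560 higher, 1949 to 2115 lower, 1099 to 1221 higher and apart, and 1195 to 1343 lower and apart, where fewer title numbers have to be apart. Among ratios and list medians of at least 2-fold, the sign turned for exocrine and red blood cell genes. Some smaller medians also changed sign, such as that of H3K27 methylation, at 0.21 over the gates and -0.18 within number 5. Cpa1 had 0.63 within number 1, 1.07 within number 5 and 0.31 without Ngn3-low numbers 2 to 4, a setting chosen after seeing the data, under which Ptf1a had 0.45. The tip and acinar median was 0.47 within number 5 and 0.14 without numbers 2 to 4, and that of red blood cell markers was 0.81 within number 1 and 0.56 without numbers 2 to 4. Without numbers 2 to 4, 1324 genes were higher and 1660 lower and apart. Over all settings, single-cell ratios were recomputed for the genes named by rule. Of these ratios, 1871 moved by no more than the spread between title numbers and 234 moved by more. A further 4, at least 2-fold over the gates, changed sign, and sign changes of smaller ratios were not counted separately. In bulk, with the replicate number as a block, 980 of the higher genes rose and 1045 of the lower genes fell, against 970 and 1040 without it. DESeq2 gave 966 and 1009, and leaving out 1 library at a time gave 921 to 976 rises and 965 to 1050 falls, where a lone library is assumed to vary like the other groups. The numbers were not taken as pairs, since there are only 2 per group. Deviations of same-numbered Ngn3-high and Ngn3-low libraries correlated at 0.15. Each gate is 1 sample, reads lack molecular identifiers, and a gene under 10 CPM in a cell may have been missed.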

Other observations

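Some members of the lists have not been described. Of the Notch genes, Notch3, a receptor, was at 6.66 CPM in Ngn3-high and 40.8 CPM in Ngn3-low cells, and Nrarp, a feedback target of Notch signals, at 1.42 CPM in Ngn3-high and 27.1 CPM in Ngn3-low cells. Numbl, an adaptor that restrains Notch, was higher, at 52.3 CPM in Ngn3-high and 4.14 CPM in Ngn3-low cells, and Rbpj, the DNA-binding partner of the Notch intracellular domain, was at 56.3 CPM in Ngn3-high and 85.5 CPM in Ngn3-low cells, under 2-fold. Among growth factor genes, Spry4 and Spry1, both inhibitors of receptor tyrosine kinase signals, lay on opposite sides. Spry4 was at 12.96 CPM in Ngn3-high cells and had no read in Ngn3-low cells, while Spry1 had no read in Ngn3-high cells and was at 8.60 CPM in Ngn3-low cells. These are low levels, and Spry1 lay under the mean gate level of 5 CPM.

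Of the chromatin genes, Kdm6a, the X-linked H3K27 demethylase, was at 91.2 CPM in Ngn3-high and 62.3 CPM in Ngn3-low cells, with a log2 ratio of 0.54. Phf1, a Polycomb accessory protein, was at 21.8 CPM in Ngn3-high and 4.61 CPM in Ngn3-low cells, and Jarid2, another, at 123 CPM in Ngn3-high and 66.3 CPM in Ngn3-low cells. Rbbp7, a histone-binding protein of several complexes, was lower, at 188 CPM in Ngn3-high and 482 CPM in Ngn3-low cells. Of the migration genes, Ncam1, a neural cell adhesion molecule, was at 22.7 CPM in Ngn3-high and 1.86 CPM in Ngn3-low cells and was carried by 25 Ngn3-high and 1 Ngn3-low cells, and Fn1, fibronectin, was at 65.9 CPM in Ngn3-high and 178 CPM in Ngn3-low cells.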
